A study of Mus musculus with 6 samples.

Results

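The genes followed here carry the action of thyroid hormone inside the cell: the receptors Thra and Thrb, their dimer partners Rxra and Rxrb, the corepressors Ncor1 and Hr, and the response genes Klf9, Thrsp and Me1. They were chosen by name from a list of 9 genes, and every probe set that the array's annotation assigns to 1 of them alone was taken. This gave 22 probe sets for 8 of the 9 genes, out of 45101 probe sets on the array, and Ncor1 was not analysed here. Of the 22, 16 probe sets of 7 genes passed the filter on dim signals and were tested. The 6 that did not pass were the single probe set of Thrb, 2 of Rxra, 2 of Klf9 and 1 of Thrsp. RNA came from microdissected thyroid of mice at postnatal day 15, hybridised to Affymetrix mouse expression arrays. There were 3 arrays from Slc26a4 heterozygotes, numbered 1, 3 and 5 in the labels, and 3 from Slc26a4 knockouts, numbered 2, 4 and 6. Slc26a4 encodes pendrin, an anion exchanger of the apical membrane of the hormone-making follicular cells. The controls are heterozygous, so both groups carry a mutant allele. The labels give no strain, sex or kind of mutant allele, and they do not say how many animals each RNA came from. The p-values measure only the spread between these samples, which may be technical.

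Thyroid hormone acts through nuclear receptors that sit on DNA mostly as dimers with a retinoid X receptor. Without hormone the receptors recruit corepressors and hold target genes down, and with triiodothyronine (T3), the active hormone, they exchange them for coactivators. Genes such as Klf9, Hr, Thrsp and Me1 are therefore commonly read as gauges of the hormone inside a tissue, and they tend to be lower where hormone is short. The comparison of knockout with heterozygous glands asks whether these gauges differ when pendrin is missing.

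The receptor dimer binds a hexamer called a half-site, AGGTCA, classically as a direct repeat with a spacer of 4 bases, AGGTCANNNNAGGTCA. Both were searched on both strands in the 250 bases before each RefSeq start site (assembly GRCm38.p6). The CCAAT box, a common promoter element, was added after the sequences were seen, as CCAAT on both strands. Promoter sequences of 7 of the 9 genes, all but Thra and Hr, gave 12 windows. The direct repeat was in none of the 12 windows and in 0.0152% of all 32851 windows. The half-site alone was in 2 of the 12 windows, the first of Thrb (once) and the second of Rxra (2 times), and in 14% of all windows. The windows of the response genes Klf9, Thrsp and Me1 held no half-site. The CCAAT box was in 3 of the 12 windows, those of Klf9 (3 times) and Thrsp (2 times) and the second of Me1 (once), and in 33.8% of all windows. These matches describe letters only. The windows of Thrb and Rxra that hold half-sites and those of Klf9 and Thrsp, both response genes, are printed 5′ to 3′ on the strand of the gene, with half-sites or CCAAT boxes in capitals. Thrb is at chr14:17660710-17660959 (plus strand), Rxra at chr2:27709042-27709291 (plus strand), Klf9 at chr19:23140976-23141225 (plus strand) and Thrsp at chr7:97417551-97417800 (minus strand).
Thrb: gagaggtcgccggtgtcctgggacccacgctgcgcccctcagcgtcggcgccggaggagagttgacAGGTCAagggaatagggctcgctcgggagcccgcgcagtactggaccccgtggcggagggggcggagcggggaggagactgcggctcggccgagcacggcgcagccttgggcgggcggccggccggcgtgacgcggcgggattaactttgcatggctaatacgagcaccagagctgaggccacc
Rxra: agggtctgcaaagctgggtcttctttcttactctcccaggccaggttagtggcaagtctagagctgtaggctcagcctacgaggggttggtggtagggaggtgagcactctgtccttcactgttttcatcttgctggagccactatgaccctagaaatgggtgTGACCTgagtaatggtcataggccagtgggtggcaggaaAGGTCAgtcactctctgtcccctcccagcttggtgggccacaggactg
Klf9: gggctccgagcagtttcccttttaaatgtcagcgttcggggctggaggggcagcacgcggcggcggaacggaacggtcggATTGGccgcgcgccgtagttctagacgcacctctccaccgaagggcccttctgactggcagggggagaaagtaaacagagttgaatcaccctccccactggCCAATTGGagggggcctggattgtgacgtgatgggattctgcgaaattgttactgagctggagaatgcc
Thrsp: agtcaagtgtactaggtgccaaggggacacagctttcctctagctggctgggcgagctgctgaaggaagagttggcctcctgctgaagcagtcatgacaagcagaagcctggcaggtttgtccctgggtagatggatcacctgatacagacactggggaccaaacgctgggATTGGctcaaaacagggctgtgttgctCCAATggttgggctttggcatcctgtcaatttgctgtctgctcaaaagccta

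The arrays were first checked against markers of the tissue. Of 9 thyrocyte markers, 8 were measured, and all 8 were above the background of 22.9 on every array. That background is the brightest value of 27 control probe sets for bacterial transcripts. The summed signal of the thyrocyte markers was 32278 to 38308 on heterozygous and 32528 to 35974 on knockout arrays. Other tissues were present too. The 6 brown adipocyte markers were all above background on every array, with sums of 29408 to 38824 and 28788 to 39228. The sums of 7 skeletal muscle markers ran from 18934 to 31626 on heterozygous arrays and from 6210 (knockout 6) to 31571 on knockout arrays. The sum of 3 parathyroid markers was 990.1 on heterozygous 1 and 3406 on knockout 6, against 15998 to 16851 on the other 4 arrays. The sum of 6 thymocyte markers was 2940 on knockout 4, against 56.3 to 88.8 elsewhere. In such bulk RNA, fewer cells of a type and less RNA per cell cannot be told apart.

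No receptor, corepressor or response gene differed between knockout and heterozygous thyroid beyond the spread between arrays (limma, adjusted p = 1 for each of the 16 tested probe sets). None of the 16 had an unadjusted p under 0.05, and the smallest was 0.17, for Rxra. Over all 27022 probe sets tested, limma called 0% higher and 0% lower. It had 138 (0.511%) at an unadjusted p under 0.05, and the other tool, which shares no variance between probe sets, called 0 and had 283. Of the 16 probe sets, 13 had the higher and 3 the lower mean in knockouts, with a median log2 difference of 0.07, against 13318 higher, 13704 lower and a median of -0.0021 over all tested. The differences ran from -0.22 to 0.25 on the log2 scale. The split rested on heterozygous 3, the array that read lowest in 11 of the 16 probe sets. Without it 7 were higher and 9 lower, and without knockout 6 the numbers were 10 and 6. The 16 probe sets are repeat readings of 7 genes, with 5 for Klf9, and are not independent. By the brightest probe set of each gene, 7 of 7 were higher, and 4 of 7 without heterozygous 3.

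**Figure D1:**
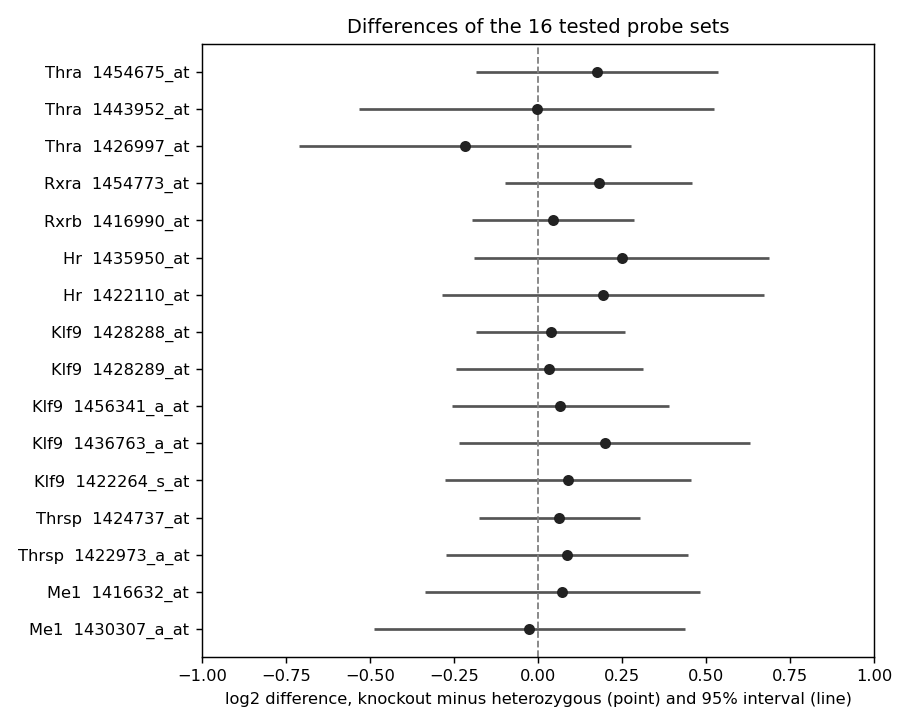
Log2 difference between knockout and heterozygous arrays (horizontal axis, knockout minus heterozygous) for each of the 16 tested probe sets (vertical axis), as a point with the 95% interval of limma as a line, n = 3 arrays a group. All 16 intervals include 0, and 13 points lie to the right of it.

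Of the receptors, Thra was measured by 3 probe sets that went different ways. Thra encodes the hormone-binding receptor TRα1 and a splice form that does not bind hormone, and the annotation does not say which form a probe set reads. By 1454675_at, its brightest probe set, Thra read 1357, 1292 and 1919 on heterozygous 1, 3 and 5 and 1717, 1772 and 1603 on knockouts 2, 4 and 6. Both the lowest and the highest arrays were heterozygous, and the 3 knockout arrays lay between them. The log2 difference was 0.18 ± 0.16 (SE), with a 95% interval of -0.18 to 0.54 (limma, adjusted p = 1). Without heterozygous 5 it was 0.35 (limma, unadjusted p = 0.014, adjusted p = 1), and without heterozygous 3 it was 0.071. By 1443952_at Thra read 358, 298 and 530 on heterozygous and 330, 369 and 460 on knockout arrays, a log2 difference of -0.0043. By 1426997_at the signals were 193, 262 and 329 against 190, 228 and 236, a difference of -0.22 with an interval of -0.71 to 0.28. Heterozygous 5 was the highest array in all 3 probe sets. The mean of the 3 gave a difference of -0.015, so the data give Thra no direction. The Thra gene overlaps the clock gene Nr1d1 at its end on the opposite strand, and Nr1d1 read 745, 396 and 415 on heterozygous and 401, 378 and 499 on knockout arrays (1426464_at). Nr1d1 stood highest on heterozygous 1, where 1454675_at of Thra was the second lowest.

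Thrb, the other receptor, stood near background in both genotypes. Its single probe set, 1422202_at, read 19.5, 39.6 and 29.2 on heterozygous 1, 3 and 5 and 34.3, 28.5 and 51.7 on knockouts 2, 4 and 6. Heterozygous 1 lay under the background of 22.9 and the other 5 arrays above it. It was left out by the filter, which corresponds to a signal of 43.5. With no filter its log2 difference was 0.25, with an interval of -0.38 to 0.88 (limma, adjusted p = 1), so that a sizeable difference in either direction is not detectable at this brightness.

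The retinoid X receptors, partners of the thyroid hormone receptors and of several other nuclear receptors, were clearly measured by 1 probe set each. Rxra read 953, 877 and 877 on heterozygous 1, 3 and 5 and 997, 1154 and 933 on knockouts 2, 4 and 6 (1454773_at). The groups overlapped only in that knockout 6 lay under heterozygous 1. The log2 difference was 0.18 ± 0.12 (SE), with an interval of -0.098 to 0.46 (limma, unadjusted p = 0.17, adjusted p = 1). It was 0.096 without knockout 4, the highest array, and 0.26 with array weights (limma, unadjusted p = 0.040, adjusted p = 0.959). A further probe set, 1430497_at, had all knockout arrays above all heterozygous ones, but it was under background on all 6 arrays, at 12.0 to 21.2, and was not tested. The remaining Rxra probe set, 1425762_a_at, read 17.8 to 35.1.

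Rxrb varied least of the tested genes, with its highest array 1.18 times its lowest. It read 1552, 1462 and 1502 on heterozygous and 1468, 1481 and 1721 on knockout arrays (1416990_at). Only knockout 6 stood away from the rest. The log2 difference was 0.045 ± 0.10 (SE), with an interval of -0.20 to 0.28 (limma, adjusted p = 1), and it was -0.029 without knockout 6 and -0.0036 with array weights.

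Hr, hairless, is a corepressor that binds the thyroid hormone receptors and is itself induced by T3. It read 410, 322 and 418 on heterozygous 1, 3 and 5 and 366, 460 and 560 on knockouts 2, 4 and 6 (1435950_at). Knockouts 4 and 6 lay above every heterozygous array, while knockout 2 lay among them. The log2 difference of 0.25 ± 0.19 (SE) was the highest of the 16, with an interval of -0.19 to 0.69 (limma, adjusted p = 1). It was 0.11 without knockout 6 and 0.40 without knockout 2. The dimmer Hr probe set, 1422110_at, read 63.0, 60.8 and 60.8 on heterozygous and 65.7, 66.8 and 87.1 on knockout arrays. It was the single tested probe set of the 16 whose groups did not overlap, where 3.68% of all tested did so, 1.64% with the knockouts higher and 2.04% with them lower. The step between the groups was from 63.0 to 65.7, and the log2 difference of 0.19 had an interval of -0.29 to 0.67 (limma, adjusted p = 1). An exact permutation test gave p = 0.1, two-sided, the smallest that 3 arrays against 3 allow. Any set without overlap gives this value, so the test adds nothing to the lack of overlap. Hr is also expressed in skin, and the sum of 5 squamous epithelium markers was 942.2 to 1076 on heterozygous and 1070 to 1201 on knockout arrays, highest on knockout 6. Most of that sum was Krt10, at 784 to 844 on the other 5 arrays and 1042 on knockout 6. Krt5 and Krt14, which define the basal layer, were lowest on knockout 6, Krt5 at 33.6 against 87.8 to 219.5 elsewhere. Krt14 was at 18.8 there, under background, as it also was on heterozygous 5 (22.2). Krt13 and Lor were second highest on knockout 6 (55.5 and 51.65), after heterozygous 5 (92.5 and 60.1). Of the 5 markers, 3 were above background on every array. The part of these cells in the Hr signal was not tested.

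**Figure D2:**
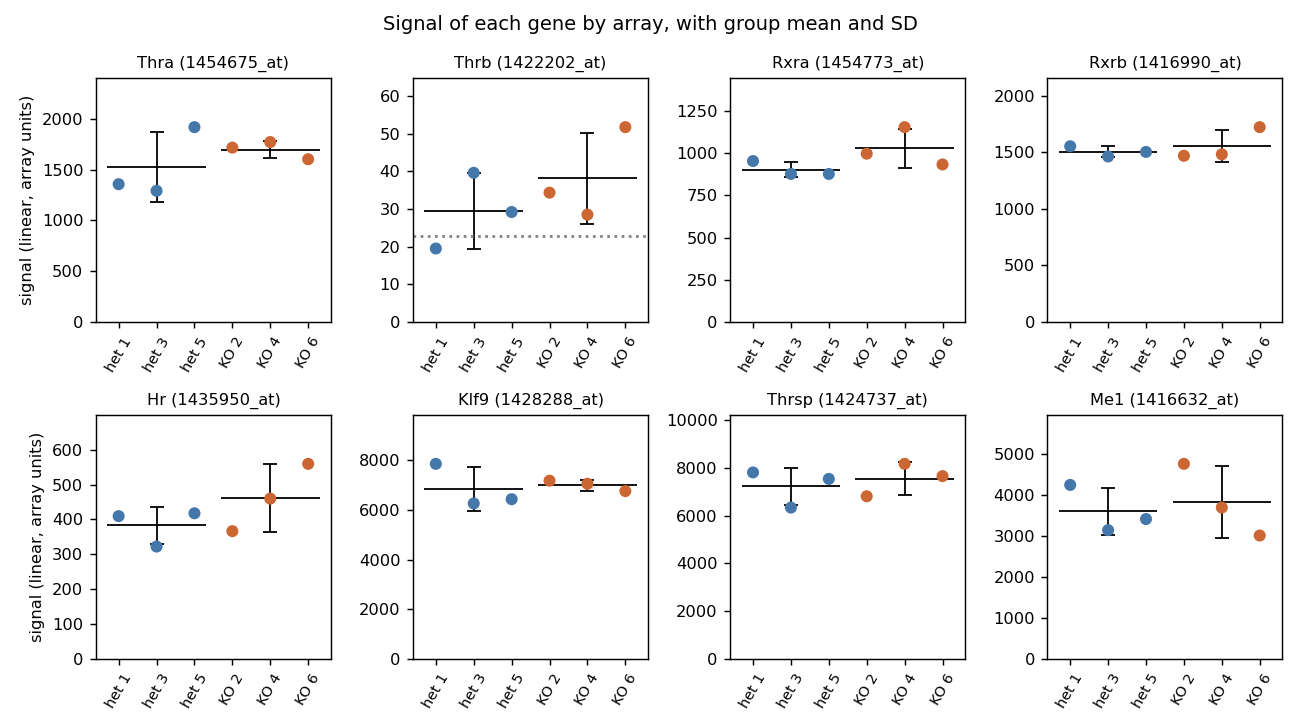
Signal of each gene (vertical axis, linear array units, from 0) on the 6 arrays (horizontal axis), by its brightest probe set, blue for heterozygous and orange for knockout, with the group mean as a line and the SD as a bar (n = 3). The groups overlap in all 8 panels, and Thrb lies near the dotted background of 22.9.

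Of the response genes, Klf9 showed no called difference, and its brightest probe set had the narrowest interval of the 16. Klf9 is a zinc finger transcription factor and a direct T3 target in several tissues. By 1428288_at it read 7865, 6266 and 6437 on heterozygous 1, 3 and 5 and 7184, 7060 and 6764 on knockouts 2, 4 and 6. The 3 knockout arrays lay inside the heterozygous range. The log2 difference was 0.038 ± 0.096 (SE), with an interval of -0.19 to 0.26 (limma, adjusted p = 1), which spans a knockout level from 0.88 to 1.20 times the heterozygous one. It was -0.023 without heterozygous 3 and -0.0041 without heterozygous 5. The other 4 tested Klf9 probe sets gave differences of 0.034 to 0.20, and all 4 read highest on knockout 6. Across the 6 arrays these 4 followed each other, with r from 0.87 to 0.95 on log2 values. The brightest one followed them less, with r from 0.023 to 0.39. These correlations share the arrays and their scaling and are given as a description. By 1436763_a_at, for example, Klf9 read 576, 451 and 508 on heterozygous and 574, 472 and 745 on knockout arrays.

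Thrsp, also called Spot14, promotes fatty acid synthesis and is a classic T3 target of liver and fat. By 1424737_at it read 7818, 6342 and 7547 on heterozygous 1, 3 and 5 and 6817, 8179 and 7664 on knockouts 2, 4 and 6. The lowest array was heterozygous 3 and the next lowest knockout 2. The log2 difference was 0.064 ± 0.10 (SE), with an interval of -0.18 to 0.30 (limma, adjusted p = 1), and it was -0.028 without heterozygous 3. By 1422973_a_at Thrsp read 4224, 3408 and 4506 on heterozygous and 3426, 4843 and 4677 on knockout arrays, a log2 difference of 0.086 with an interval of -0.28 to 0.45. The summed brown adipocyte markers split the arrays as this second probe set did. They were 29408 on heterozygous 3 and 28788 on knockout 2, 33220 on heterozygous 1, and 38824 to 39228 on heterozygous 5 and knockouts 4 and 6. All 6 of these markers were above background everywhere, and Ucp1, which defines brown fat, read 9211 to 11977. Elovl3 among them went otherwise, highest on knockout 2 (285.1) and lowest on heterozygous 5 (93.9). Its groups did not overlap, where 3.68% of all tested probe sets did not. The Elovl3 log2 difference of 0.80 had an interval of 0.18 to 1.43 (limma, unadjusted p = 0.018) and was not called. The part of fat in the Thrsp signal was not tested.

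Me1, cytosolic malic enzyme, supplies NADPH for fatty acid synthesis and is raised by T3 in liver. By 1416632_at it read 4240, 3136 and 3407 on heterozygous 1, 3 and 5 and 4754, 3688 and 3005 on knockouts 2, 4 and 6. The highest and the lowest array were both knockouts. The log2 difference was 0.073 ± 0.18 (SE), with an interval of -0.34 to 0.48 (limma, adjusted p = 1), and it was -0.098 without knockout 2 and -0.020 without heterozygous 3. By 1430307_a_at Me1 read 1208, 1119 and 935 against 1418, 1023 and 823, a log2 difference of -0.026 with an interval of -0.49 to 0.44. Unlike Thrsp, Me1 stood high on knockout 2 and low on knockout 6 in both probe sets. Dio1, the deiodinase that is another T3-raised gene and is abundant in the thyroid, had its highest and lowest signals on the same arrays. It read 4832, 3875 and 3377 on heterozygous 1, 3 and 5 and 5090, 3660 and 2739 on knockouts 2, 4 and 6. The thyrocyte marker sum was highest on heterozygous 1 (38308) and next on knockout 2 (35974), the arrays where Me1 was highest in both probe sets. Its markers differed, as Tg, the brightest, was highest on heterozygous 1 (13805) but lowest on knockout 2 (11794). Slc5a5, Iyd, Tshr and Duoxa2 were highest on knockout 2 (3400, 7447, 1128 and 451.3), with Iyd at 7437 on heterozygous 1. Pax8, Nkx2-1 and Slc26a7 were, like Tg, highest on heterozygous 1 (3402, 192.2 and 9161). On knockout 2 these 3 read 2849, 164.4 and 8740. The skeletal muscle sum was also highest on heterozygous 1 and knockout 2 (31626 and 31571) and lowest on knockout 6 (6210), where Me1 was lowest. The muscle sum spanned 5.09-fold over the 6 arrays against 1.19-fold for the thyrocyte sum. Bright markers weigh most in such sums. Single thyrocyte markers spanned from 1.16-fold (Iyd) to 2.635-fold (Slc5a5), and single muscle markers from 3.61-fold (Mylpf) to 31.8-fold (Myh4). The part of either cell type in the Me1 signal was not tested.

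**Figure D3:**
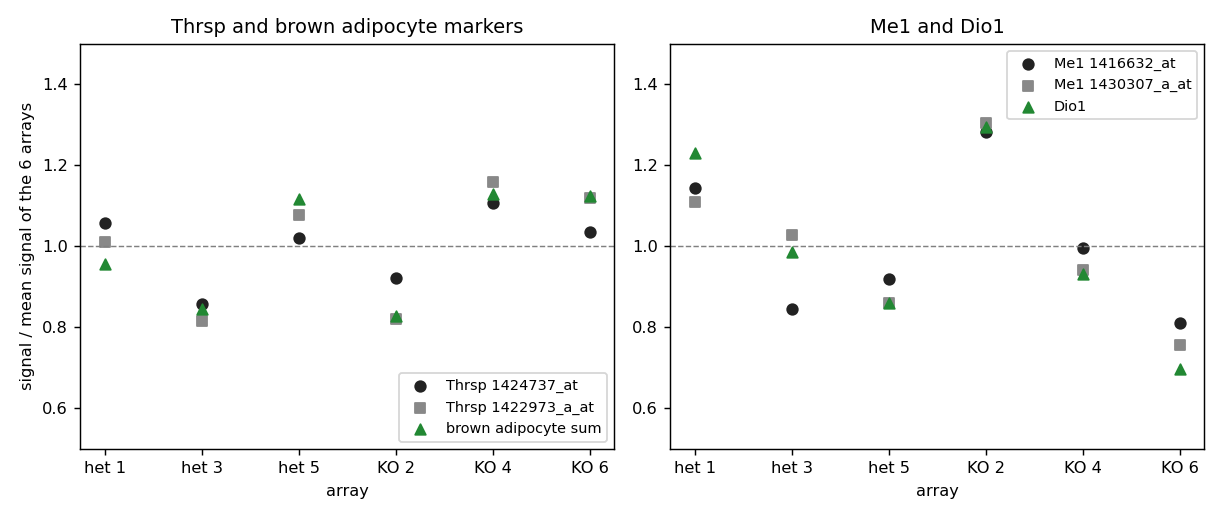
Signal of Thrsp beside the brown adipocyte marker sum (left) and of Me1 beside Dio1 (right) on the 6 arrays (horizontal axis), each divided by its mean over the 6 arrays (vertical axis, dashed line at the mean). Thrsp and the brown adipocyte sum are both lowest on heterozygous 3 and knockout 2, and Me1 and Dio1 are both highest on knockout 2 and lowest on knockout 6.

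Array by array, the genes thus did not move as a single block. Heterozygous 3 was the lowest array in 11 of the 16 tested probe sets, including 5 of Klf9, both of Thrsp, 2 of Thra and 1 each of Hr and Rxrb. Knockout 6 was the highest in 7, of which 4 were of Klf9 and 2 of Hr, and the lowest in both of Me1. Knockout 4 was the highest in 3 (both of Thrsp and the tested one of Rxra), and heterozygous 5 in the 3 of Thra. These arrays also differed in overall brightness, with median signals of 93.7 on heterozygous 3 and 103.6 on knockout 6 and 78.0 to 85.3 on the other 4.

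**Figure D4:**
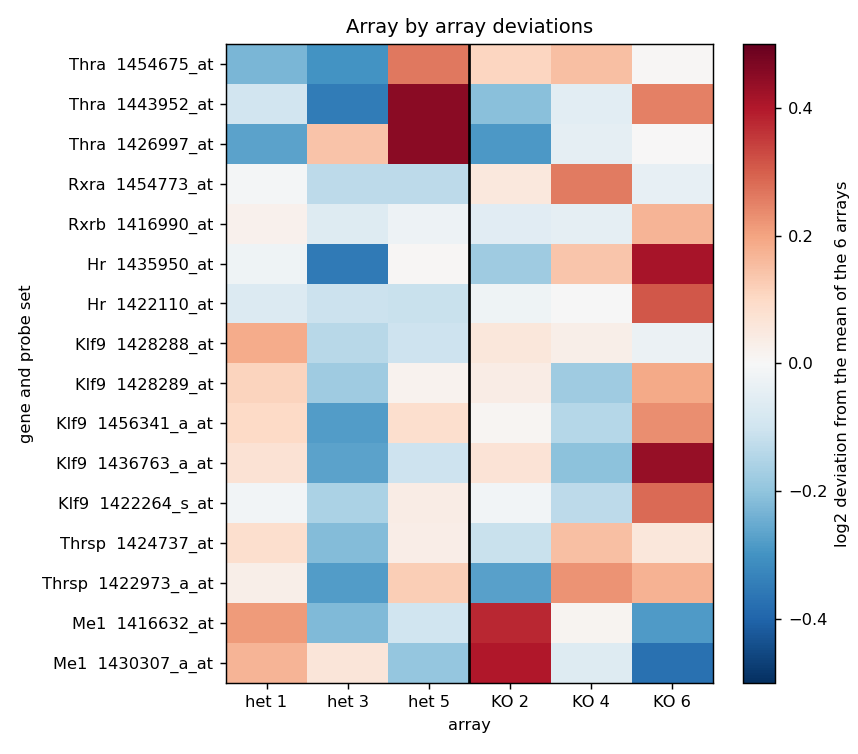
Log2 deviation of each array (columns) from the mean of the 6 arrays, for the 16 tested probe sets (rows), with red above and blue below the mean and a black line between heterozygous and knockout arrays. Heterozygous 3 is the lowest array in 11 rows, and Me1 is high on knockout 2 where Thrsp is low.

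Among other genes raised by T3, none passed, and 14 of the 16 tested had the higher knockout mean. All 20 genes of that list were on the array, and 4 were left out by the filter. The median log2 difference was 0.080, against -0.0021 over all probe sets tested, and 0 of the 16 had an unadjusted p under 0.05. Without heterozygous 3 only 6 of the 16 were higher and the median was -0.013. Without knockout 6 it was 10 of 16 with a median of 0.038. Fasn, fatty acid synthase, had the smallest p, with 5250, 3465 and 2632 on heterozygous 1, 3 and 5 and 6435, 5446 and 3946 on knockouts 2, 4 and 6. Its log2 difference of 0.51 had an interval of -0.091 to 1.11 (limma, unadjusted p = 0.086, adjusted p = 1). Cpt1a, which admits fatty acids to mitochondria, was next, at 1939, 2392 and 2142 against 2267, 1805 and 1620, a log2 difference of -0.19. Dio1 and Cpt1a were the 2 of the 16 with the lower knockout mean. The other tested Cpt1a probe sets went different ways, with log2 differences of -0.082 (1434866_x_at) and 0.079 (1460409_at). Many of the list's genes serve lipid metabolism, and the adipocyte marker sum was 21637 to 26909 on heterozygous and 20395 to 28626 on knockout arrays, with heterozygous 3 and knockout 2 lowest. Their part in the list's values was not tested.

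Of 5 genes lowered by T3, Dio2 alone was bright enough to test. Dio2, the deiodinase that makes T3 within tissues, read 1859, 1716 and 2107 on heterozygous and 1838, 2703 and 4004 on knockout arrays (1418937_at). Knockouts 4 and 6 lay above every heterozygous array and knockout 2 among them, the same arrangement as for Hr. The log2 difference of 0.52 had an interval of -0.055 to 1.09 (limma, unadjusted p = 0.071, adjusted p = 1). It was 0.24 without knockout 6 and 0.80 without knockout 2. The dimmer Dio2 probe sets gave log2 differences of 0.50 (1426081_a_at, interval -0.37 to 1.37) and 0.52 (1418938_at, interval -0.0925 to 1.14). Both also read highest on knockouts 6 and 4. Dio2 was highest on knockouts 6 and 4 and heterozygous 5, the arrays with the highest brown adipocyte sums (39092, 39228 and 38824). The part of brown fat in the Dio2 signal was not tested. The pituitary genes Cga and Tshb and the hypothalamic gene Trh were under background on all 6 arrays, and Myh7 was above it on 3.

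The cofactors that work with the receptors showed no called difference either. Of 8 tested genes of the corepressor complex, 5 were higher and 3 lower, with a median log2 difference of 0.028. Tbl1xr1, a subunit of the complex, read 3223, 3126 and 2997 on heterozygous and 3088, 3084 and 2549 on knockout arrays. Gps2, another subunit, read 554, 558 and 562 against 645, 571 and 606, and its groups did not overlap, with a log2 difference of 0.12 (interval -0.16 to 0.39, limma, adjusted p = 1). A dimmer probe set of Sin3a, a scaffold of deacetylase complexes, did not overlap in the other direction, at 452, 419 and 405 against 370, 390 and 343 (1419101_at), a log2 difference of -0.20 (interval -0.51 to 0.11, limma, adjusted p = 1), while its brightest one overlapped. These were the 2 without overlap among all 21 tested probe sets of the list, where 3.68% of all tested did not overlap. Of 11 coactivators, 5 were higher and 6 lower, with a median of -0.0001. Ppargc1a, a coactivator abundant in brown fat, read 1620, 1656 and 1797 against 1521, 2220 and 2385, a log2 difference of 0.25. A dimmer Ppargc1a probe set, 1456395_at, had all knockouts higher, with a log2 difference of 0.44 (interval -0.0335 to 0.92). A dimmer one of Crebbp, 1459804_at, had all knockouts lower, at -0.15 (interval -0.51 to 0.21). These were the 2 without overlap among all 28 tested coactivator probe sets, beside the 3.68% of all tested. Ncoa6 read 669, 744 and 733 against 681, 575 and 638, a difference of -0.18. Without knockout 2 only 2 of the 11 coactivators were higher.

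Of 8 tested genes for Rxrg and other partners of the retinoid X receptors, 5 were higher and 3 lower, with a median log2 difference of 0.11. The vitamin D receptor Vdr varied most, at 241, 568 and 533 on heterozygous 1, 3 and 5 and 1408, 562 and 236 on knockouts 2, 4 and 6, with an interval of -0.91 to 1.80. By its other tested probe set, 1418175_at, Vdr read 81.5, 342.5 and 236.4 against 317.5, 236.2 and 75.5. The log2 difference was -0.065 there, against 0.445 by the brighter one. Vdr was lowest on heterozygous 1 and knockout 6, the arrays with the lowest parathyroid marker sums, and the part of that tissue was not tested. Rarg, a retinoic acid receptor, read 369, 457 and 364 against 428, 375 and 488. Without heterozygous 3 only 3 of the 8 were higher. Of 4 tested genes of hormone transport, 2 were higher and 2 lower. The transporter Slco1c1 read 60.6, 51.0 and 70.7 against 30.1, 68.8 and 43.9, and Slc7a8 read 89.1, 142.3 and 119.2 against 142.5, 144.4 and 115.7.

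**Figure D5:**
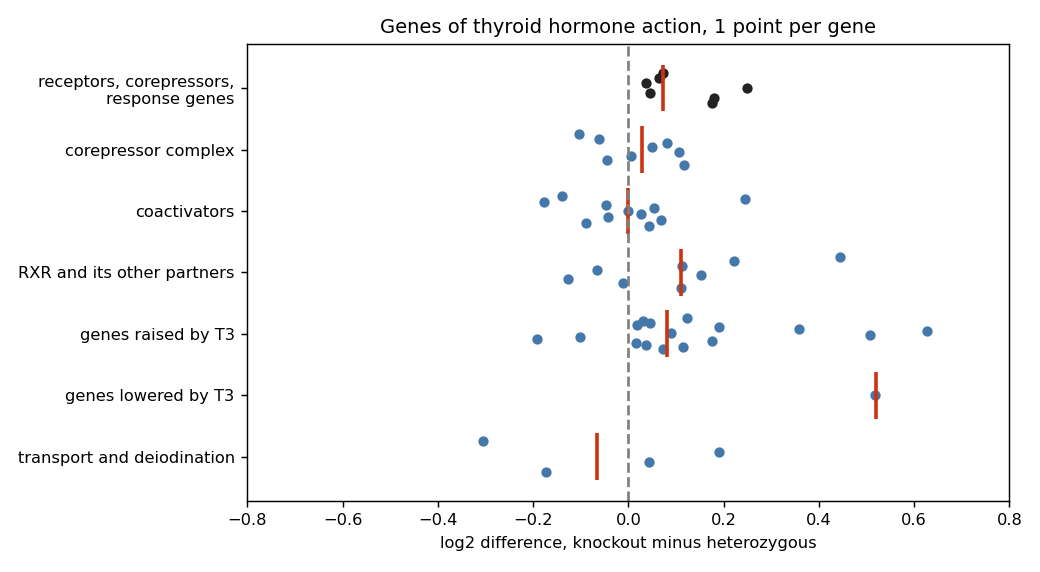
Log2 difference between knockout and heterozygous arrays (horizontal axis) for the tested genes of each list (vertical axis), 1 point per gene by its brightest tested probe set, with the median of the list as a red line. The 7 tested receptors, corepressors and response genes have a median of 0.073, and the 16 genes raised by T3 have a median of 0.080.

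The genes most like Hr, Klf9, Thrsp and Me1 over the 6 arrays were sought among 12897 other genes, by the Pearson correlation of log2 signals. With 6 arrays that share their scaling, high values arise easily, as 41 genes reached r over 0.95 with Hr. For Hr the nearest were Mrm3 (r = 0.991), Cox19 (0.989) and Tinag (0.983). For Klf9, by 1428288_at, they were Pef1 (0.989), Sntb1 (0.987) and Psmd2 (0.951), and 3 genes exceeded 0.95. The other 4 tested Klf9 probe sets followed 1428288_at less (r from 0.023 to 0.39), so these neighbours are those of this probe set alone. Thrsp was nearest to Smpdl3a (0.991), Ilrun (0.991) and Atp5a1 (0.988), and 23 genes exceeded 0.95. Me1 was nearest to Slc14a2 (0.993), Ccdc167 (0.991) and Tigar (0.986). Slc14a2 read 454, 158 and 189 on heterozygous 1, 3 and 5 and 547, 269 and 133 on knockouts 2, 4 and 6, the same order as Me1 by 1416632_at.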

How the data were processed

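The deposited values are linear intensities, 1 signal per probe set and array, from the array maker's software GCOS per the submitters' processing notes (version and settings not given in the sources used here). Each of the 6 arrays has a mean of 500.002 after 2% of the values are trimmed at each end, so the authors' values were already scaled, and that scaling was kept. It would remove a shift common to most transcripts. The number of arrays limits the precision.

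Gene names come from the array annotation, where 34958 of 45101 carry 1 symbol, 932 several and 9211 none. Signals were analysed as log2(signal + 16.7), the pseudocount being their 25th percentile, which understates the change of dim genes. Control probe sets (64) were left out. The 27022 whose mean log2 value exceeded the 40th percentile were tested with limma 3.58.1 in R 4.3.3 (lmFit, eBayes with trend, Benjamini-Hochberg over all tested, threshold 0.05). The other tool was Welch's test, as a count only. Each gene stands by its brightest tested probe set. The fit was tested on simulated data.

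The members and gene lists were chosen with earlier results of these data known. The named genes are all members, the 2 genes of each pathway list with the smallest unadjusted p, and the 3 genes most correlated with Hr, Klf9, Thrsp and Me1. Others (Dio1, Nr1d1, Sin3a, Crebbp and the untested T3-lowered genes) were named after their values were seen. So were the single tissue markers Ucp1, Elovl3, Krt5, Krt10, Krt14, Tg, Slc5a5 and Iyd. The alternatives tried were cyclic loess and quantile normalization, a pseudocount 0.25 or 4 times as large, no filter or the 60th percentile, no trend, robust fitting, array weights, the mean of a gene's probe sets, and each array left out. Besides the lists above, markers of Schwann cells, cartilage and erythroid cells were summed. Their sums on the 6 arrays ran from 6894 to 11585, from 1281 to 2265 and from 155.3 to 620.4.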

Additional observations from a re-analysis of the deposited data

How the results depend on the processing

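No probe set of the array and none of the genes followed here was called by limma under any of the alternatives run, nor by the other tool. The smallest adjusted p for a member over all alternatives was 0.959. Of the tested probe sets, the number with the higher knockout mean was 7 to 14 and the number with the lower mean 2 to 9 when single arrays were left out. The lower number was 5 (of 22 probe sets) with no filter and 6 with array weights, against 3. When single arrays were left out the log2 difference ran from -0.023 to 0.14 for Klf9, from -0.028 to 0.14 for Thrsp, from -0.098 to 0.23 for Me1 and from -0.029 to 0.084 for Rxrb. Rxrb was at -0.0036 with array weights, and Thra at -0.015 with the mean of its probe sets. Hr (0.11 to 0.40) and Rxra (0.096 to 0.26) kept a positive difference in every alternative run, without passing. Some alternatives could not move it, as the filter, the trend and robust fitting leave a log2 difference unchanged. The mean over probe sets could not move Rxra either, which had 1 tested probe set. The causes of the changes between settings were not tested. No paired analysis was run, because the labels name no pairs and the groups share no sample number. Signals near background limit what can be said of Thrb.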
